A study of Sus scrofa with 8 samples.

Results

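The cytosolic ribosomal protein genes, which encode the protein parts of the ribosome in the cytosol, were described in adipose tissue of Jinhua and Landrace pigs. A gene ID was taken as a member when its symbol in an adipose m6A peak list, or otherwise its Ensembl name, began with RPL or RPS followed by a number, or was RPLP0, RPLP1, RPLP2 or RPSA, with the S6 kinases left out. This gave 58 of the 22676 gene IDs of the expression table, 34 for proteins of the large subunit and 24 for proteins of the small subunit, and no symbol was held by more than 1 ID. Of the 58 IDs, 31 had no Ensembl name and therefore became members through a peak, so that having a peak was partly fixed by the choice of members. The animals were males aged 180 days, 2 of Jinhua, a breed the labels call fatty, and 2 of Landrace, a breed they call leaner, and no animal had a treatment given in the labels. Each animal gave an input library of adipose mRNA and a library of sonicated mRNA pulled down with an m6A antibody (IP library). The m6A mark is a methyl group that enzymes add to adenosines inside an mRNA.

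A ribosome has a small subunit, which reads the codons of the mRNA, and a large subunit, which joins amino acids and lets the new chain out through a tunnel. Each subunit is built on ribosomal RNA in the nucleolus from proteins that are mostly present in a single copy per ribosome, so cells make them in matched amounts. In vertebrates the mRNAs of these proteins begin with a terminal oligopyrimidine (TOP) tract, through which the kinase mTOR and the binding protein LARP1 control their translation. The m6A mark is placed by the METTL3 and METTL14 complex, and in mammals it lies mostly in long internal exons and around stop codons. Mammalian genomes hold many processed copies of ribosomal protein genes, and reads that fit a gene and its copies can be assigned to either. How such reads were treated is not given in the sources used here, so the level of every gene below carries that uncertainty.

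A library that stood apart touched most results. Landrace replicate 1 had the shortest peak list, with 8909 peaks, against 20688 and 16116 in the Jinhua animals and 19039 in Landrace replicate 2. It was also the lowest of the 4 input libraries for 46 of the 58 ribosomal protein genes. Several summaries over the 58 genes, and the differences of some genes, are also given without it. Results of the other gene lists are not. A single gene ID with no symbol took 40.1% and 51.0% of the summed input FPKM in the Jinhua animals and 63.2% and 73.8% in the Landrace animals. FPKM, the unit in which the input values were read, is the number of fragments scaled to the length of the gene and to the mapped fragments of the library. Of the 14 adipocyte markers, 11 were measured, and they summed to 7733 and 11119 FPKM in the Jinhua animals, against 16475 and 9764 FPKM in the Landrace animals, with 7 of the 11 highest in Landrace replicate 1. All 15 measured of 20 skeletal muscle markers were highest in Landrace replicate 2, where they summed to 3159 FPKM, against 98.4 FPKM in Landrace replicate 1 and 103 and 157 FPKM in the Jinhua animals. The 4 measured epithelial markers summed to 10.22 to 100.03 FPKM in the Jinhua animals and 3.61 to 22.95 FPKM in the Landrace animals, and the 4 measured blood markers to 484 to 1042 FPKM and 324 to 1160.5 FPKM in the same order. The 6 measured lymphocyte markers summed to 13.2 to 29.3 FPKM in the Jinhua animals and 24.8 to 49.1 FPKM in the Landrace animals, and the 4 measured macrophage markers to 155 to 254 FPKM and 154 to 213 FPKM. No measured marker of these lists was at 0 in all 4 libraries.

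Ribosomal protein mRNAs were among the most abundant of the tissue. Of the 50 gene IDs with the highest mean FPKM over the 4 input libraries 12 were ribosomal protein genes, of the first 100 they made up 21, and of the first 500 they made up 51. All 58 passed the filter, which asked for an average FPKM of 1 or more. The median FPKM over the 58 genes was 1329 and 1266 in the Jinhua animals, against 505 and 1087 in the Landrace animals. The large-subunit genes had a median of 1394 and 1267 FPKM in the Jinhua animals, against 460.0 and 999 FPKM in the Landrace animals. The small-subunit genes had 1326 and 1265 FPKM in the Jinhua animals, against 841 and 1345 FPKM in the Landrace animals. The mean mRNA levels of the 58 genes, paralogs included, spread between 10.6 FPKM (RPL7L1) and 7415 FPKM (RPLP1).

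The stalk proteins RPLP1 and RPLP2, which sit at the edge of the large subunit and bind elongation factors, were among the 6 highest genes. RPLP1 (ENSSSCG00000004970) stood at 4130.0 and 10052 FPKM in the Jinhua samples, compared with 7654 and 7822 FPKM in the Landrace samples. Jinhua replicate 1 alone was low, the 2 Landrace animals lay between the Jinhua animals, and the groups overlapped. For RPLP2 (ENSSSCG00000012842) the levels were 2629 and 4413 FPKM in the Jinhua animals and 4451 and 4524 FPKM in the Landrace animals. Jinhua replicate 1 was again the low sample, and both Jinhua values lay below both Landrace values, by a narrow margin for Jinhua replicate 2. RPLP0, the third stalk protein, matched no ID and was not analysed here. RPL39 (ENSSSCG00000030849) had 6301 and 7105 FPKM in the Jinhua animals, against 1406 and 6728 FPKM in the Landrace animals. RPL39 is a small protein that lines the exit tunnel, and Landrace replicate 1 was the only low sample for it. The other 3 of the 6 highest genes, RPS27, RPS20 and RPS12, encode small-subunit proteins. RPS27 (ENSSSCG00000006558) stood at 6672 and 7164 FPKM in the Jinhua samples, compared with 3383 and 4555 FPKM in the Landrace samples. For RPS20 (ENSSSCG00000006249) the levels were 6496 and 6474 FPKM in the Jinhua animals and 2902 and 4797 FPKM in the Landrace animals. RPS12 (ENSSSCG00000004177) had 5267 and 6549 FPKM in the Jinhua animals, against 1662 and 4141 FPKM in the Landrace animals. For all 3 both Jinhua values lay above both Landrace values, and Landrace replicate 1 was the lowest sample.

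**Figure D1:**
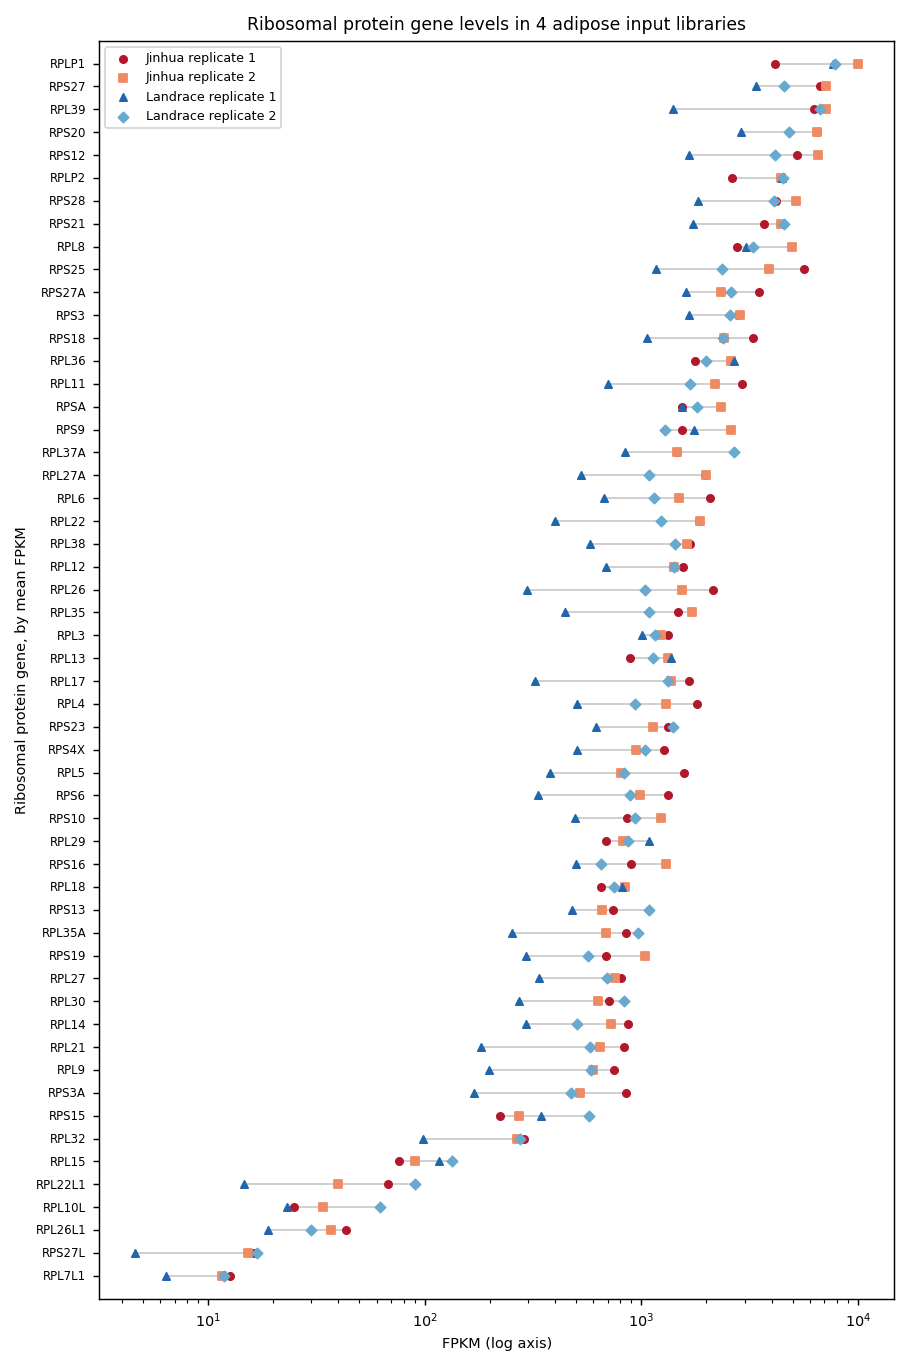
Input level of 54 of the 58 ribosomal protein genes (FPKM, log axis) in each of the 4 input libraries, with genes ordered by mean FPKM and a line joining the lowest and highest library. The Landrace replicate 1 triangles lie at the left end for 44 genes, and the 5 paralogs RPL22L1, RPL10L, RPL26L1, RPS27L and RPL7L1 lie at the bottom.

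The 5 genes with the lowest mean FPKM were the 5 paralogs, that is, genes for near relatives of a standard ribosomal protein. RPL22L1 (ENSSSCG00000027441) stood at 67.9 and 39.7 FPKM in the Jinhua samples, compared with 14.7 and 90.0 FPKM in the Landrace samples. RPL22L1 had the widest gap between the Landrace animals, which enclosed both Jinhua values. For RPL10L (ENSSSCG00000005001) the levels were 24.8 and 33.9 FPKM in the Jinhua animals and 23.2 and 62.1 FPKM in the Landrace animals. RPL10L, known in human and mouse as a copy of RPL10 expressed in testis, was highest in Landrace replicate 2, and the groups overlapped. RPL26L1 (ENSSSCG00000016989) had 43.6 and 36.8 FPKM in the Jinhua animals, against 18.9 and 29.8 FPKM in the Landrace animals. RPS27L (ENSSSCG00000023158) stood at 16.3 and 15.3 FPKM in the Jinhua samples, compared with 4.61 and 16.8 FPKM in the Landrace samples. For RPL7L1 (ENSSSCG00000026472) the levels were 12.6 and 11.6 FPKM in the Jinhua animals and 6.38 and 11.8 FPKM in the Landrace animals. Only for RPL26L1 among the 5 were both Jinhua values above both Landrace values, and Landrace replicate 1 was the lowest sample for all 5. The partner gene was far above its paralog in each of the 3 pairs with both members measured. RPL22 was 27.2 and 47.3 times the FPKM of RPL22L1 in the Jinhua animals, and 27.02 and 13.7 times in the Landrace animals. RPL26 was 49.3 and 42.1 times RPL26L1 in the Jinhua animals, and 15.7 and 34.7 times in the Landrace animals. RPS27 was 409 and 469 times RPS27L in the Jinhua animals, and 735 and 272 times in the Landrace animals. The ratios of the 2 breeds overlapped for RPS27 over RPS27L, and both Jinhua ratios were higher for RPL22 over RPL22L1, where Jinhua replicate 1 and Landrace replicate 1 were nearly equal, and for RPL26 over RPL26L1. RPL15 was the lowest of the remaining genes, with a mean of 104 FPKM.

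The breeds were compared to ask how fat of a fatty and of a leaner breed differ in expression. In limma, fitted to log2(FPKM + 1) of all 13693 gene IDs tested, 5 IDs (0.0365%) passed a Benjamini-Hochberg adjusted p of 0.05, and 0 of the 58 ribosomal protein genes did. Also 0 of the 58 reached an unadjusted p under 0.05, while 5.85% of all IDs tested did so with a higher level in Jinhua and 3.87% with a lower one. The smallest adjusted p of a ribosomal protein gene in limma was 0.496. Differences of Jinhua minus Landrace ran between -0.85 and 1.71 on the log2(FPKM + 1) scale, with a median of 0.71, against a median of 0.15 over all IDs tested. The differences of the 58 genes had an SD of 0.58, against 0.87 over all IDs tested. They were above 0 for 45 genes (77.6%), against 58% of all IDs tested. Both Jinhua values lay above both Landrace values for 28 genes (48.3%), against 30.2% of all IDs tested, and below both for 6 genes (10.3%), against 18.1%. The groups overlapped for the other 24. The median difference was 0.66 for the large subunit and 0.76 for the small subunit. In whole tissue, fewer cells of a type and less RNA per cell cannot be told apart.

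The size of the median rested on Landrace replicate 1. Without that animal the median difference was 0.16, against 0.07 over all IDs tested. Then 29 of the 58 genes were higher and 15 lower in both Jinhua animals than in the remaining Landrace animal. Over all 13693 IDs tested, 5487 were higher and 4002 lower. Without Landrace replicate 2 the median was 1.21, against 0.23 over all IDs tested. With that animal left out, 46 of the 58 genes were higher and 8 lower in both Jinhua animals, against 6610 and 4574 of the 13693 IDs. Leaving out Jinhua replicate 1 or Jinhua replicate 2 gave medians of 0.65 and 0.77. Median-ratio scaling of the libraries lowered the median of the 58 genes to 0.53 and that of all IDs tested to -0.01. Both Jinhua values then lay above both Landrace values for 21 genes and below for 6, against 3199 and 3229 of 13693 IDs tested. Rescaling the libraries without the largest ID raised the 2 medians to 0.89 and 0.30. Under it 38 genes lay above and 2 below, against 5254 and 1706 of 13692 IDs tested. The adipocyte markers had their highest sum in Landrace replicate 1, and the muscle markers separated Landrace replicate 2 from the rest. The part of these markers in the result was not tested.

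Of the genes with the smallest p on the Jinhua side, RPL27A, RPL26, RPL4 and RPL14 belong to the large subunit, and RPS25 to the small subunit. RPL27A (ENSSSCG00000022059) had 1969.5 and 1997 FPKM in the Jinhua animals, against 528 and 1083 FPKM in the Landrace animals. The Jinhua animals were nearly equal and lay above both Landrace animals, and the log2 difference was 1.39 (SE 0.52). RPS25 (ENSSSCG00000015103) stood at 5634 and 3876 FPKM in the Jinhua samples, compared with 1172 and 2352 FPKM in the Landrace samples. Both Jinhua values were above both Landrace values, with a log2 difference of 1.49 (SE 0.56). RPS25 is needed in human cells for translation from some internal entry sites. For RPL26 (ENSSSCG00000028850) the levels were 2147 and 1548 FPKM in the Jinhua animals and 297 and 1037 FPKM in the Landrace animals. RPL26, which in human cells also binds the p53 mRNA, had the largest difference of the 58 genes, at 1.71 (SE 0.73), and Landrace replicate 1 was far below the other animals. RPL4 (ENSSSCG00000004945) had 1810.0 and 1298 FPKM in the Jinhua animals, against 503 and 938 FPKM in the Landrace animals. RPL14 (ENSSSCG00000011272) stood at 871 and 722 FPKM in the Jinhua samples, compared with 295 and 503 FPKM in the Landrace samples. Landrace replicate 1 was the lowest and Jinhua replicate 1 the highest sample for both. RPL4, whose loop reaches the wall of the exit tunnel, had a log2 difference of 1.16 (SE 0.51), and RPL14 one of 1.04 (SE 0.45). The adjusted p of these 5 genes in limma lay between 0.496 and 0.498, so that none of the differences passed the test. Without Landrace replicate 1 the differences were 0.87 for RPL27A, 0.99 for RPS25, 0.81 for RPL26, 0.71 for RPL4 and 0.66 for RPL14.

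On the Landrace side, RPS15, RPL15, RPL29 and RPLP2 were among the genes with the smallest p, and the groups did not overlap for any of these 4. For RPS15 (ENSSSCG00000023248) the levels were 223 and 272 FPKM in the Jinhua animals and 344 and 576 FPKM in the Landrace animals. RPS15, a small-subunit protein near the decoding centre, had a log2 difference of -0.85 (SE 0.44), and Landrace replicate 2 was its high sample. RPL15 (ENSSSCG00000028079) had 76.0 and 90.6 FPKM in the Jinhua animals, against 116 and 134 FPKM in the Landrace animals. RPL15 had a log2 difference of -0.58 (SE 0.33), and the 4 animals were evenly spread. RPL29 (ENSSSCG00000027573) stood at 689 and 824 FPKM in the Jinhua samples, compared with 1089.8 and 872 FPKM in the Landrace samples. Landrace replicate 1 was the highest sample for RPL29, with a log2 difference of -0.37 (SE 0.40). RPLP2 differed by -0.40 (SE 0.49). Adjusted p in limma lay between 0.512 and 0.726 for the 4 genes. Without Landrace replicate 1 the differences were -1.22, -0.68, -0.21 and -0.41 for RPS15, RPL15, RPL29 and RPLP2.

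**Figure D2:**
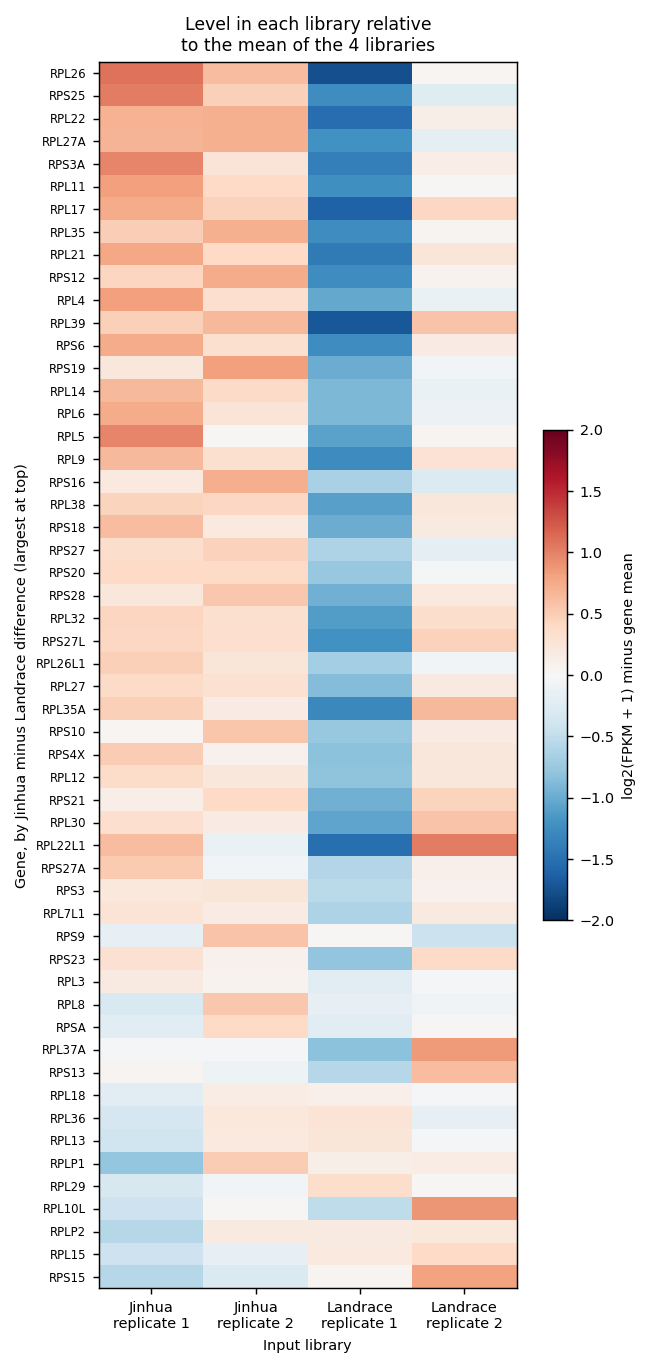
Level of 54 of the 58 ribosomal protein genes in each input library, as log2(FPKM + 1) minus the mean of that gene over the 4 libraries, with genes ordered by the Jinhua minus Landrace difference. The Landrace replicate 1 column is blue for most genes, while RPS15 and RPL15 stand at the bottom.

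Beyond the genes at the ends of this range, 6 others were followed for their known roles or their paralogs. RPS6 is the substrate of the S6 kinases that act under mTOR. For RPS6 (ENSSSCG00000005169) the levels were 1328 and 988 FPKM in the Jinhua animals and 333 and 889 FPKM in the Landrace animals. Both Jinhua values were higher, Landrace replicate 1 was low, and the log2 difference was 1.07 (SE 0.62). RPL5 and RPL11 bind the p53 regulator MDM2 when ribosome assembly is disturbed. RPL5 (ENSSSCG00000006899) had 1577 and 810.3 FPKM in the Jinhua animals, against 381 and 829 FPKM in the Landrace animals. RPL11 (ENSSSCG00000024260) stood at 2922 and 2182.4 FPKM in the Jinhua samples, compared with 704 and 1679 FPKM in the Landrace samples. Jinhua replicate 1 was the highest and Landrace replicate 1 the lowest sample for both, and the groups overlapped for RPL5 but not for RPL11. The log2 differences were 1.01 (SE 0.62) for RPL5 and 1.21 (SE 0.60) for RPL11, and their adjusted p in limma was 0.545 and 0.511. RPL3, which reaches close to the site of peptide bond formation, RPSA, also described as a laminin receptor, and RPS4X, encoded on the X chromosome in mammals, differed less. For RPL3 (ENSSSCG00000000089) the levels were 1330.1 and 1235 FPKM in the Jinhua animals and 1009 and 1156 FPKM in the Landrace animals. RPSA (ENSSSCG00000011266) had 1539 and 2344 FPKM in the Jinhua animals, against 1538 and 1805 FPKM in the Landrace animals. RPS4X (ENSSSCG00000012405) stood at 1268 and 949 FPKM in the Jinhua samples, compared with 507 and 1046 FPKM in the Landrace samples. The Jinhua values of RPL3 were just above the Landrace values, and the groups overlapped for RPSA and RPS4X. Their log2 differences were 0.25 (SE 0.39), 0.19 (SE 0.45) and 0.59 (SE 0.53) for RPL3, RPSA and RPS4X. Under quantile normalization those of RPL3 and RPSA turned to -0.083 and -0.033. Without Landrace replicate 1 the differences were 0.36, 0.45 and 0.59 for RPS6, RPL5 and RPL11. For RPL3, RPSA and RPS4X they were 0.15, 0.07 and 0.07 without that animal.

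The 58 genes also differed together between the 2 Landrace animals. In Landrace replicate 1 the median ratio of a gene to the median of the other 3 libraries was 0.448, and 34 of the 58 genes (58.6%) were at less than 0.5 times that median, against 19.2% of all IDs tested with values above 0. No ribosomal protein gene was below 0.5 times the median of the others in any of the other 3 libraries. Of all IDs tested with values above 0, 7.69% and 8.95% were so in the Jinhua animals and 5.92% in Landrace replicate 2. Landrace replicate 2 minus Landrace replicate 1 had a median of 1.04 on the log2(FPKM + 1) scale over the 58 genes, with 53 above 0, against a median of 0.09 over all IDs tested. Jinhua replicate 2 minus Jinhua replicate 1 had a median of -0.03 over the 58 genes and -0.08 over all IDs tested. The 5 genes that were not lower in Landrace replicate 1 than in Landrace replicate 2 were RPS9, RPL36, RPL29, RPL13 and RPL18, named here after their values were seen. At the other end, RPL22L1 and RPL39 differed most between the Landrace animals, by 2.53 and 2.26. The genes with the largest gap in Landrace tended to be lower in Jinhua replicate 2 than in Jinhua replicate 1. Across the 58 genes, which share their libraries and are not independent replicates, the 2 within-breed differences had a Pearson r of -0.58 and a Spearman rho of -0.50, against -0.38 and -0.15 over all IDs tested. Levels of the 58 genes were closely correlated between libraries. Pearson correlations of log2(FPKM + 1) lay between 0.889 (Jinhua replicate 1 with Landrace replicate 1) and 0.977 (Jinhua replicate 1 with Jinhua replicate 2). Over all IDs tested they lay between 0.731 (Jinhua replicate 1 with Landrace replicate 1) and 0.878 (Jinhua replicate 1 with Landrace replicate 2). The ranks of the genes were not compared.

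**Figure D3:**
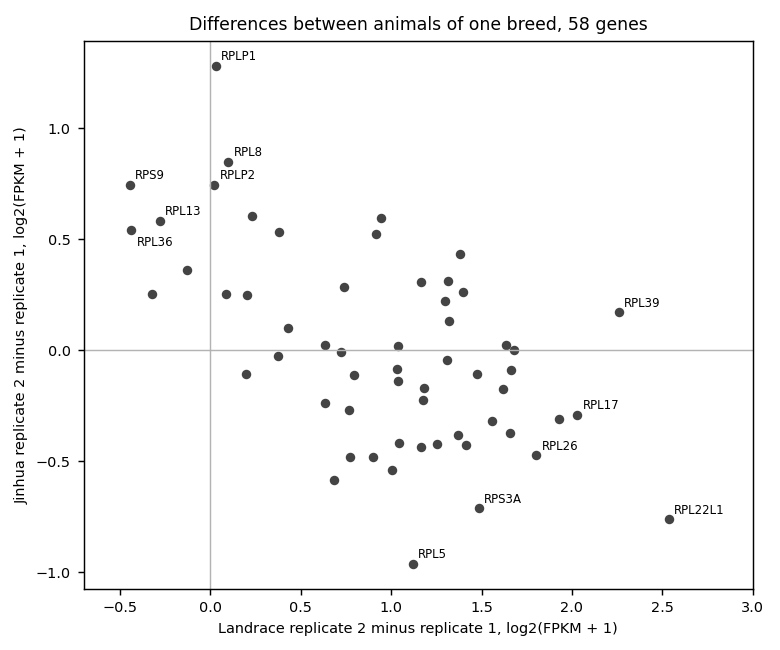
Difference between the 2 animals of a breed for each of the 58 ribosomal protein genes, Landrace on the horizontal axis and Jinhua on the vertical axis, both as log2(FPKM + 1) of replicate 2 minus replicate 1. The points lie to the right of 0 for 53 genes and around 0 on the vertical axis, with RPL39 and RPL22L1 at the far right and RPLP1 at the top.

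Summed over the 58 genes, ribosomal protein mRNA made up 11.4% and 12.1% of the summed FPKM in the Jinhua animals, against 5.63% and 8.79% in the Landrace animals, when the single largest ID was left out. Both Jinhua shares were higher, by 4.55 percentage points on average, with an exact permutation p of 0.33 (two-sided), the smallest that 2 animals against 2 allow. With the largest ID included, the shares were 6.81% and 5.95% in the Jinhua animals, against 2.07% and 2.30% in the Landrace animals. Leaving out any 1 animal kept the difference between 2.96 and 6.13 points. FPKM sums are not read numbers, and the depth of the libraries is unknown.

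Other genes of the ribosome's supply chain did not pass the test either. Among 11 of 13 regulators of ribosomal protein synthesis, such as MTOR, LARP1 and the S6 kinases, 0 passed in limma, and the median log2 difference was 0.06. At an unadjusted limma p under 0.05, 1 (9.09%, against 5.85% of all IDs tested) was higher in Jinhua and 0 were lower. Both Jinhua values lay above both Landrace values for 3 of the 11 (27.3%, against 30.2% of all IDs tested). They lay below both for 1 (9.09%, against 18.1%). LARP4, which stabilises mRNA tails, had 12.7 and 13.3 FPKM in the Jinhua animals, against 7.08 and 6.39 FPKM in the Landrace animals. RPS6KB1, an S6 kinase, had 10.4 and 12.1 FPKM in the Jinhua animals, against 4.73 and 8.10 FPKM in the Landrace animals. Among 20 of 23 ribosome assembly factors 0 passed in limma, with a median of 0.21. At an unadjusted limma p under 0.05, 3 (15.0%, against 5.85% of all IDs tested) were higher in Jinhua and 0 lower. Both Jinhua values were above both Landrace values for 10 of the 20 (50%, against 30.2% of all IDs tested) and below both for 3 (15.0%, against 18.1%). SBDS, which helps release a maturation factor from the large subunit, had 88.2 and 77.6 FPKM in the Jinhua animals, against 33.6 and 31.7 FPKM in the Landrace animals, with a limma adjusted p of 0.496. NOP58, a core protein of the particles that methylate ribosomal RNA, had 24.7 and 19.4 FPKM in the Jinhua animals, against 6.90 and 11.4 FPKM in the Landrace animals. Both animals of each breed stood together for SBDS, while for NOP58 Landrace replicate 1 was the low sample.

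The 57 IDs for mitochondrial ribosomal proteins, which belong to a separate ribosome inside mitochondria, had a median difference of 0.35, with 45 above 0. Of these 0 passed in limma, 4 (7.02%, close to the 5.85% of all IDs tested) were higher and 0 lower in Jinhua at an unadjusted p under 0.05. Both Jinhua values were above both Landrace values for 27 (47.4%, against 30.2% of all IDs tested) and below both for 4 (7.02%, against 18.1%). MRPL1 had 15.8 and 14.4 FPKM in the Jinhua animals, against 6.46 and 8.23 FPKM in the Landrace animals, and MRPS31 had 34.3 and 26.2 FPKM in the Jinhua animals, against 10.4 and 17.3 FPKM in the Landrace animals. The 15 measured of 20 other genes with a TOP tract had a median of 0.90 with 13 above 0, and in limma 0 passed and 0 had an unadjusted p under 0.05. Both Jinhua values were above both Landrace values for 10 of the 15 (66.7%, against 30.2% of all IDs tested) and below both for 0 (against 18.1%). HNRNPA1, an RNA-binding protein, had 404 and 312 FPKM in the Jinhua animals, against 122 and 212 FPKM in the Landrace animals. EIF3H, a subunit of a translation initiation factor, had 402 and 300.3 FPKM in the Jinhua animals, against 123 and 212 FPKM in the Landrace animals. In both genes the low sample was Landrace replicate 1, as for most ribosomal protein genes, and both Jinhua values were the higher ones.

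In the IP libraries, a peak was listed for 48 of the 58 ribosomal protein genes (82.8%, 95% Wilson interval 71.1 to 90.4%) in Jinhua replicate 1 and for 41 (70.7%, 57.99 to 80.8%) in Jinhua replicate 2. The Landrace animals had 32 (55.2%, 42.5 to 67.3%) in replicate 1 and 44 (75.9%, 63.5 to 85.0%) in replicate 2. The intervals cover counting error only. Over the other IDs that passed the filter the shares were 63.6% and 53.5% in the Jinhua animals, and 34.9% and 59.2% in the Landrace animals. Since 31 genes became members through a peak, these shares are a description. The Jinhua share exceeded the Landrace share by 11.2 points, and by 0.862 points without Landrace replicate 1. Landrace replicate 2 lay between the Jinhua animals, so the breeds overlapped. The order of the libraries was that of the lengths of their peak lists over all genes.

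The 27 genes with an Ensembl name did not depend on a peak for their place. A peak was listed for 74.1% and 63.0% of them in the Jinhua animals, and for 44.4% and 70.4% in the Landrace animals. Their Jinhua share exceeded the Landrace share by 11.1 points, with an exact permutation p of 0.667, and Landrace replicate 2 lay between the Jinhua animals. Other Ensembl-named IDs that passed the filter had 74.7% and 65% in the Jinhua animals, and 43.7% and 70.2% in the Landrace animals. The mean difference over the 4 libraries was -0.43 points (exact sign-flip permutation p = 0.75). Against the 82 Ensembl-named IDs that were as abundant, with a mean FPKM at or above 622, the lower quartile of the ribosomal protein genes, the share was lower in 4 of 4 libraries. Those IDs had peaks for 90.2% and 78.0% in the Jinhua animals, and for 69.5% and 92.7% in the Landrace animals. The difference of ribosomal protein genes minus abundant genes averaged -19.7 points, with an exact sign-flip permutation p of 0.13, the smallest that 4 libraries allow. This comparison was chosen after the data were seen.

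**Figure D4:**
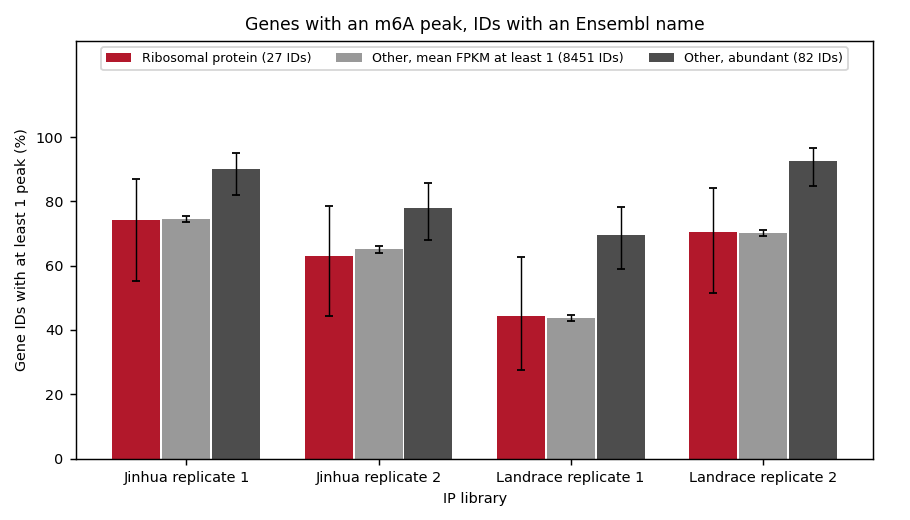
Percentage of gene IDs with an Ensembl name that had at least 1 m6A peak in each IP library, for 27 ribosomal protein genes, 8451 other IDs and 82 other abundant IDs, with 95% Wilson intervals. The ribosomal protein bars stand level with the other IDs and below the abundant IDs in all 4 libraries, and all 3 bars are lowest in Landrace replicate 1.

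Where ribosomal protein genes had peaks, they had few. A gene with a peak carried 1.23 and 1.17 peaks on average in the Jinhua animals, and 1.03 and 1.16 in the Landrace animals. Other genes with a peak carried 2.37 and 2.20 in the Jinhua animals, and 1.86 and 2.35 in the Landrace animals. The 27 Ensembl-named ribosomal protein genes carried 1.35 and 1.24 peaks per gene with a peak in the Jinhua animals, and 1.08 and 1.21 in the Landrace animals. The 82 abundant Ensembl-named IDs carried 2.43 and 2.06 in the Jinhua animals, and 1.79 and 2.49 in the Landrace animals. The average was thus lower for the ribosomal protein genes in 4 of 4 libraries, a description without a test. Longer transcripts can hold more peaks, and transcript lengths are not in the lists, so the part of length in this difference was not tested.

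Peaks were listed in all 4 IP libraries for 23 genes, in 3 for 20, in 2 for 5, in 1 for 3 and in none for 7. Among other IDs that passed the filter, 30.3% had peaks in all 4 and 27.9% in none. Of the 27 Ensembl-named ribosomal protein genes 37.0% had peaks in all 4 libraries and 25.9% in none, and of the 82 abundant Ensembl-named IDs 62.2% and 6.10%. Among the 7 without a peak were RPLP2, RPS21, RPS3, RPL38, RPS16 and RPL10L. Several of these were abundant, and RPS3, a protein of the mRNA entry channel, had 2812 and 2860 FPKM in the Jinhua animals and 1655 and 2569 FPKM in the Landrace animals. The median mean FPKM was 1329.7 over the 7 genes with no peak and 885 over the 23 with peaks in all 4 libraries, so the genes without a peak were not the scarce ones, although all 7 had to carry an Ensembl name to be members. The genes with a peak in a single library included RPL35A and RPL36.

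Peak positions recurred between animals. Counted from the first base of the transcript, 19 of the 23 genes with peaks in every IP library had a base covered in all 4. This count was not made for other genes. The part of transcript length in it, and in the overlap shares given below, was not tested. RPS27 had a single peak at 1 to 100 in each of the 4 libraries. RPS25 had 1 at 1 to 126 in both Jinhua animals, and at 1 to 125 and 1 to 126 in the Landrace animals. RPS3A, RPS18 and RPS6 likewise had 1 peak per library, and in RPS6 it ran over 445 to 589 and 450 to 630 in the Jinhua animals, and 445 to 600 and 448 to 598 in the Landrace animals. RPS4X had the most, with 11 peaks, 2 of them in the coding sequence of every library, which shared 309 bases between 452 and 833. RPS4X had further peaks at 1 to 130 and 974 to 1129 in Jinhua replicate 1, and at 981 to 1090 in Landrace replicate 2. RPL3 had 7 peaks, and the shared stretch was 541 to 694. RPL29 had 6, with a shared stretch at 606 to 760, RPL32 had 6, with 725 to 899, and RPS10 had 6, with 677 to 822. RPL4 had 5, with a shared stretch of 1173 to 1248.

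The 4 exceptions were RPL6, RPL15, RPL9 and RPS12. RPL6 had a peak at 684 to 837 and 684 to 820 in the Jinhua animals and at 673 to 826 in Landrace replicate 2, and an earlier one at 420 to 570 in Jinhua replicate 2, against 365 to 521 and 381 to 500 in the Landrace animals. Landrace replicate 1 had only the earlier peak, and Jinhua replicate 1 only the later one. RPL15 had a peak near the start, which spanned 1 to 129 in Jinhua replicate 2, against 1 to 135 in Landrace replicate 1. Its later peak lay at 432 to 546 and 511 to 611 in the Jinhua animals, and at 433 to 585 in Landrace replicate 2. In RPL9 the 2 Jinhua animals and Landrace replicate 2 had a peak in the 3′ UTR, at 468 to 623, 469 to 624 and 487 to 642, and Landrace replicate 1 had it in the coding sequence, at 54 to 209. These exceptions did not separate the breeds. Over all genes, 91.5% and 95.8% of the ribosomal protein peaks of the Jinhua animals, and 90.9% and 98.0% of those of the Landrace animals, overlapped a peak of the same transcript in at least 1 other library. For other peaks the shares were 82.5% and 83.8% in the Jinhua animals, and 92.5% and 83.5% in the Landrace animals, so the ribosomal protein share was higher in 3 of 4 libraries. For peaks of the other genes as abundant they were 92.2% and 93.0% in the Jinhua animals, and 93.2% and 91.3% in the Landrace animals, and the ribosomal protein share was higher in 2 of 4.

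**Figure D5:**
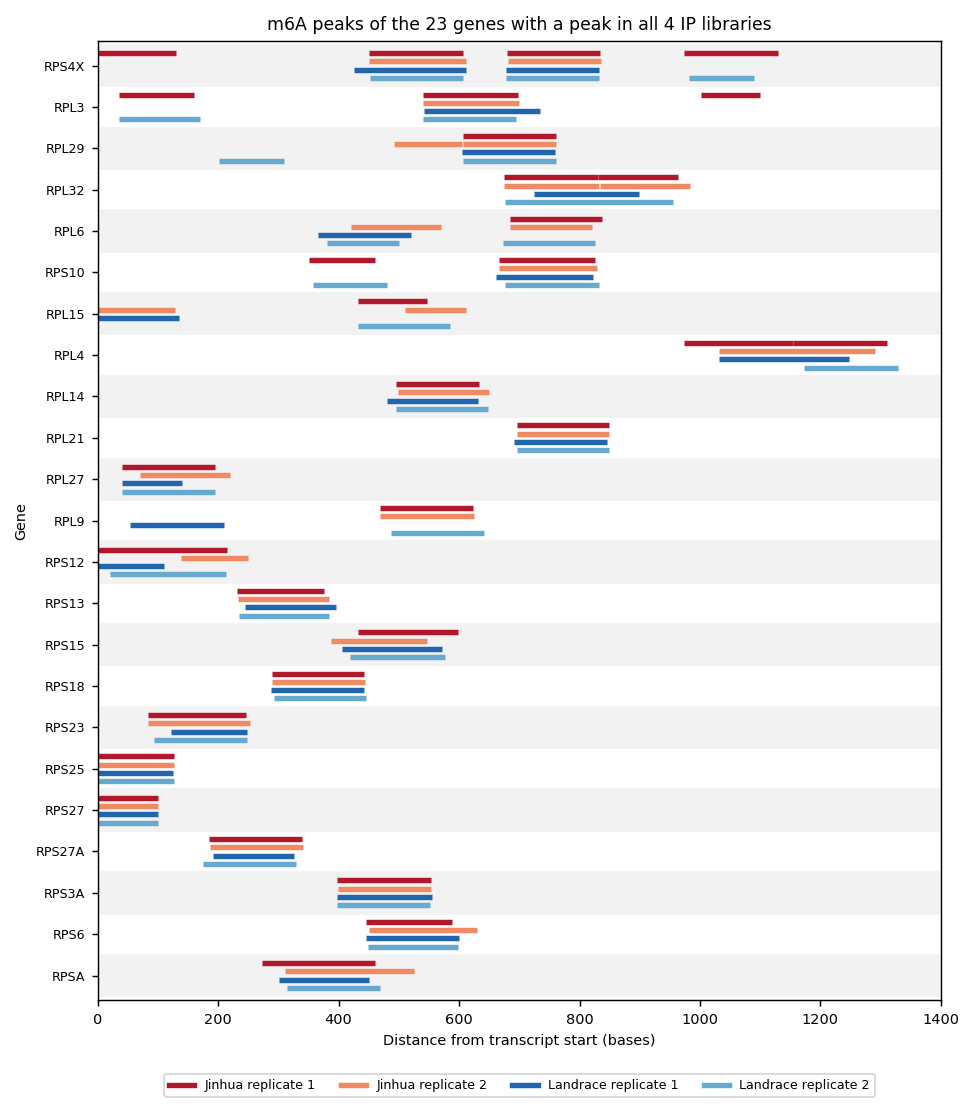
Peaks of the 23 ribosomal protein genes with a peak in all 4 IP libraries, drawn as bars by distance from the transcript start in bases, with 1 line per IP library. The bars of the 4 libraries stand over each other for 19 genes, as in RPS27, RPS25, RPS3A and RPS18, while RPL6, RPL15, RPL9 and RPS12 have no base covered in all 4.

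The ribosomal protein peaks lay mostly in coding sequence. Of the 191 peaks, 176 were listed in the coding sequence, 14 in the 3′ UTR and 1 in the 5′ UTR. The coding share was 89.8% (95% Wilson interval 79.5 to 95.3%) and 93.8% in the Jinhua animals, and 97.0% and 90.2% in the Landrace animals. For all other peaks it was 72.8% and 72.9% in the Jinhua animals, and 71.6% and 73.6% in the Landrace animals. The ribosomal protein share was higher in 4 of 4 libraries, by 19.97 points on average, with an exact sign-flip permutation p of 0.13, the smallest that 4 libraries allow. Against other genes as abundant, whose coding share was 79.8% and 82.6% in the Jinhua animals and 77.8% and 80.2% in the Landrace animals, the difference was 12.6 points. Among Ensembl-named genes alone it was 15.9 points, and over all 58 genes without Landrace replicate 1 it was 18.2 points. UTR lengths are not in the lists, and the part of UTR length in the difference was not tested.

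The 14 peaks in the 3′ UTR belonged to 7 genes, among them RPS4X, RPL9, RPL7L1, RPS19, RPS27L and RPL36. RPL7L1 had a coding peak in both Jinhua animals and in Landrace replicate 2, at 317 to 466, 317 to 468 and 322 to 475, and in each of these libraries a second one in the 3′ UTR. RPS27L held the single 5′ UTR peak, at 351 to 450 in Jinhua replicate 1. Of the 5 paralogs 4 had a listed peak, RPL10L being the exception. RPL22L1 had a coding peak at 42 to 197 in both Jinhua animals and at 44 to 199 in Landrace replicate 2, while RPL22 had peaks at 46 to 190 and 85 to 200 in the Jinhua animals and at 26 to 190 in Landrace replicate 2. RPL26L1 had peaks at 99 to 254 and 148 to 343 in the Jinhua animals and at 110 to 264 in Landrace replicate 2. Landrace replicate 1, where all 5 paralogs had their lowest level, had no peak listed for any of them.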

How the data were processed

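Adipose mRNA of 2 Jinhua and 2 Landrace males was measured in 4 input and 4 IP libraries. Per the submitters' processing notes, TopHat2 2.0.14, Sscrofa10.2 and susScr3 were named, with no role; the quantifier, the peak caller, its threshold and the handling of reads with several matches are not given in the sources used here. Per the labels' protocols, RNA came from TRIzol, mRNA from a bead kit and libraries from a stranded kit. The authors deposited an expression table, read as FPKM although it names no unit, and 1 peak list per IP library, which the authors deposited with transcript positions and no score. Further 4 expression columns and 4 peak lists match no sample described and were not analysed here. Read numbers are not given, and 190 low genes searched for steps of 1 read put at most 6 in any of 160 bins, so the depth is unknown.

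Breeds were compared with limma 3.58.1 in R 4.3.3 (mean-variance trend), two-sided, with log2(FPKM + 1) as response, for the 13693 IDs whose FPKM averaged 1 or more, and with Benjamini-Hochberg adjustment over all of them; differences are Jinhua minus Landrace, and the scale understates changes of low genes. Single values were tested over libraries by exact permutation with Python 3.11.15 and scipy 1.17.1. Peaks shared bases when they overlapped by at least 1 base. The limma step was tested on simulated data. Animals that share a replicate number did not deviate together (correlation across genes -0.384), so no block was used. The replicates were separate animals per the labels. Members and gene lists were chosen with earlier results of these data known. The rule for named genes took the 6 highest and 3 lowest by mean FPKM, the 5 with the smallest p in each direction, members of paralog pairs, the 8 with most peaks among those with peaks in all 4 libraries, RPS6, RPL5 and RPL11, and the 2 with the smallest p of each other list. RPL3L, RPL7, RPL10, RPL36A, RPL36AL, RPL39L, RPS15A and RPLP0 matched no ID and were not analysed here. No chromosome positions or sequences are given, because no pig genome of the deposited build was used. Alternatives covered the pseudocount, the filter, 3 scalings, the replicate block, the peaks counted, the genes compared with and each animal left out. Some genes that the rule names, or that belong to the 58, are not reported here by name, and all counts include them.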

Additional observations from a re-analysis of the deposited data

How the results depend on the processing

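With 2 animals a breed and unknown depth, single genes could pass the test only at large differences. Under the alternatives that keep all animals, 0 of the 58 ribosomal protein genes passed in limma. At an unadjusted limma p under 0.05, 0 to 4 of them were higher in Jinhua. The 4 came with rescaling without the largest ID, where 1452 of all 13692 IDs tested did so. Over all IDs tested the 5 calls became 0 with no filter on low values, with median-ratio scaling, with a replicate block, with the crossed replicate block (chosen after seeing the data) and without any 1 animal, where the range was 0 to 0. The replicate block left the smallest adjusted p of a ribosomal protein gene at 0.643 and the crossed pairing at 0.424, against 0.496 without a block, and neither changed another call. With 1 animal left out, 2 values of a breed were compared with 1 of the other, which is easier to meet than 2 against 2. The count of the 58 genes with every Jinhua value above every Landrace value then ran between 29 and 46. Over all 13693 IDs tested it ran between 5321 and 6610. The median difference of the 58 genes ran between 0.16 and 1.21. The share of genes with a peak, 18.3 points above that of other expressed IDs over all 58 genes, turned to -20.8 points for genes with at least 2 peaks, to -0.43 for Ensembl-named IDs and to -19.7 for abundant Ensembl-named IDs; the last 2 settings were chosen after seeing the data and leave out the genes that entered through a peak. Of 30 genes followed over 12 settings each, 23 kept their direction throughout, and 28 did so over the 8 settings that keep all animals. Among those 8, the changes of filter and both blocks leave the difference of a gene as it is. Only the smaller pseudocount and the scalings could have turned a direction there. Under quantile normalization RPL3 turned to -0.083 and RPSA to -0.033, and the cause was not tested. With 1 animal left out, the differences ran between -1.07 and 0.31 for RPL10L, -0.78 and 1.75 for RPL22L1, -0.0080 and 2.25 for RPL39, -0.91 and 0.38 for RPLP1, -0.082 and 1.58 for RPS27L, and -0.11 and 0.49 for RPSA. A lone remaining animal was assumed to vary like the other breed.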
